A study of Homo sapiens with 16 samples.

Results

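Introns that carried an open chromatin peak but no annotated repeat at that peak made up 33350 of the 151654 regions at which H3K27ac was counted. A member is a region whose annotation names an intron and whose peak was merged from 2 to 8 ATAC-seq peak calls, and neither condition uses the H3K27ac signal. Intronic rows just outside the rule, with 1 peak call (5955 regions), had median H3K27ac values of 1.03, 1.06, 0.996 and 1.01 CPM, which are tag counts scaled to library size, in the 4 groups named below. Those just inside it, with 2 peak calls (3924 regions), had 1.12, 1.15, 1.02 and 1.15 CPM. A first intron, counted from the 5′ end of the annotated transcript, held 10517 members (31.5%), and later introns held 22833 (68.5%). The members lay in 10472 host genes, of which 4342 had 1 member and 638 had at least 10.

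H3K27ac ChIP-seq was done in THP-1, a human acute monocytic leukemia cell line. The study calls the WT cells parental. USP18 was disrupted by CRISPR in the USP18−/− cells, which grew from sorted single cells. A difference between genotypes is thus also a difference between cell populations with separate histories. Each genotype was left untreated or given IFNα at 1000 U/ml for 6 h, with 2 libraries for each of the 4 groups, and values are given below in the order WT, WT with IFNα, USP18−/− and USP18−/− with IFNα. The libraries held 9046141 to 12935453.5 tags in all regions, and 27372 members (82.1%) reached 10 counts in at least 2 libraries and were tested. In bulk cells, fewer cells with the mark and less mark per cell cannot be told apart. No intronic member lies in USP18 itself, and acetylation at its start site does not test the edit.

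H3K27ac is a histone acetylation of active promoters and enhancers, and many enhancers of blood cells lie in introns, either of the gene they act on or of a neighbor. First introns often hold elements close to the promoter. Type I IFN signals through a receptor and JAK kinases to the ISGF3 complex, which binds the interferon-stimulated response element (ISRE). The core of the ISRE is a pair of TTTC half-sites set apart by a pair of bases, or GAAA half-sites on the other strand. USP18 is itself induced by IFN and holds back signaling at the IFNAR2 chain of the receptor.

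The middle 200 bp of 7 windows named below are shown. They were picked among the named windows because they hold a match to letters that were searched for. Other named windows, such as that of TRAF2, hold no ISRE core, so these 7 do not show how common a match is. The first 6 rose with IFNα in one or both genotypes, and the last was lower in USP18−/− cells. All are from the forward strand of hg38, and capitals mark a match to the ISRE core, or in MAEL a match to the C/EBP letters TTGCNNAA, on either strand. SPATS2L encodes a stress granule protein, UBE2L6 the conjugating enzyme for ISG15, NT5C3A a pyrimidine nucleotidase and PODXL the sialomucin podocalyxin. ART3 belongs to a family of ADP-ribosyltransferases, PAFAH1B2 is a subunit of an enzyme that cleaves platelet-activating factor, and MAEL acts in transposon silencing in the germ line.
SPATS2L (chr2:200383852-200384051): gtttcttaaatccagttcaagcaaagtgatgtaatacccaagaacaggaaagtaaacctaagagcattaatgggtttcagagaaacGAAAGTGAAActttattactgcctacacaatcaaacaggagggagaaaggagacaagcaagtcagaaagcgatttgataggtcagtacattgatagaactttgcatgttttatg
UBE2L6 (chr11:57566229-57566428): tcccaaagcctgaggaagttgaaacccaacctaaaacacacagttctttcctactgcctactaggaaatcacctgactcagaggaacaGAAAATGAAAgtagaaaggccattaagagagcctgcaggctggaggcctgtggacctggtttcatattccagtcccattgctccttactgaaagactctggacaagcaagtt
NT5C3A (chr7:33039664-33039863): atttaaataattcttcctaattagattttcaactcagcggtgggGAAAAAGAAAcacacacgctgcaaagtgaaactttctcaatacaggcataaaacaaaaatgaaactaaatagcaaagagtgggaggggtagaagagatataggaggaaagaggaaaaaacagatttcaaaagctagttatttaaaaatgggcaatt
PODXL (chr7:131546147-131546346): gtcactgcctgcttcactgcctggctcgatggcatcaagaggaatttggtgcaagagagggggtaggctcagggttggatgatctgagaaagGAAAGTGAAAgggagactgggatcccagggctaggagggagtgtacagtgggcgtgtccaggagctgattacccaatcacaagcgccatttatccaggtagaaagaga
ART3 (chr4:76028363-76028562): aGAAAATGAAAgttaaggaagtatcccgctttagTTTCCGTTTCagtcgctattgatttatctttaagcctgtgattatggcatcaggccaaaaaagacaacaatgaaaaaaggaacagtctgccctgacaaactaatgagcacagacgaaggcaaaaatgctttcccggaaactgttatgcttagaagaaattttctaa
PAFAH1B2 (chr11:117173190-117173389): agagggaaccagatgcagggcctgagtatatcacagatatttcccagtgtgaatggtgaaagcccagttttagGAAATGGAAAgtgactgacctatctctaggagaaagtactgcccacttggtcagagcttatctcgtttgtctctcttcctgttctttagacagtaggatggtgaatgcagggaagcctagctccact
MAEL (chr1:167016221-167016420): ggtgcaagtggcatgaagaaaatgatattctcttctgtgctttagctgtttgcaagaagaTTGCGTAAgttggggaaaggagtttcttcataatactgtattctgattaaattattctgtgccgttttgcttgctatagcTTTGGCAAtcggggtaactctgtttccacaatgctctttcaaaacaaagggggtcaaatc
The SPATS2L window is in intron 2 of 11 and 75001 bp from the nearest start site. The windows of UBE2L6, NT5C3A, PODXL and ART3 are in intron 1, and those of PAFAH1B2 and MAEL are in intron 6 of 6 and intron 8 of 10. The ART3 window, with 2 matches, has the start of CXCL10, an IFN-inducible chemokine gene, as its nearest start site, and the PAFAH1B2 window is closest to the start of SIDT2. Over all members, 62.2% had their host gene as the gene with the nearest start site, so a host gene is a position and not a target.

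A region is called raised or lowered below when its log2 fold change passed 1 or -1 and its adjusted p was under 0.05 by the quasi-likelihood test of edgeR, adjusted by Benjamini-Hochberg across every tested region of the series. Each SE given is an approximate value, the size of the log2 fold change divided by the square root of the F statistic of its test. The SEs of 2 effects therefore need not combine to that of their difference. In WT cells, IFNα raised 104 members (0.380% of those tested) and lowered 7 (0.0256%), beside 0.344% and 0.0381% of all regions tested. Leaving out 1 library gave 62 rises without WT untreated replicate 1, 67 without WT untreated replicate 2 and 64 without WT with IFNα replicate 1. The named rises with the largest values were at SPATS2L, UBE2L6 and NT5C3A, and also at LOC149684, at TRAF2, an adaptor of TNF receptor signaling, and at PTPRA, a receptor tyrosine phosphatase. Of the 104, 12 lay in genes of the list of ISGF3 and IFN-stimulated genes described below, which holds UBE2L6 and NT5C3A. At SPATS2L the WT libraries had 0.723 and 0.545 CPM without and 10.6 and 12.7 CPM with IFNα, and the USP18−/− libraries 1.48 and 1.25 CPM without and 58.8 and 52.9 CPM with it. The order of the groups was the same in every library, and the log2 fold change with IFNα was 4.19 (SE 0.29, edgeR adjusted p = 9.4e-21) in WT and 5.33 (SE 0.19, edgeR adjusted p = 1.3e-40) in USP18−/− cells. These values differed by 1.15 (SE 0.53), which did not pass the test of the difference (edgeR adjusted p = 0.17).

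The UBE2L6 window had 2.38 and 2.00 CPM in WT, 13.2 and 12.8 CPM in WT with IFNα, 3.32 and 4.04 CPM in USP18−/−, and 82.0 and 66.0 CPM in USP18−/− with IFNα. Its rise was larger in USP18−/− cells by 1.76 on the log2 scale (SE 0.32, edgeR adjusted p = 1.6e-05). In intron 4 of TRAF2 (chr9:136901427-136902427), whose nearest start site is that of MIR4479, 0.826 and 0.998 CPM became 6.74 and 9.95 CPM in WT. The USP18−/− libraries there went from 2.36 and 2.50 CPM to 76.2 and 69.3 CPM, and the rise was larger by 1.73 (SE 0.45, edgeR adjusted p = 0.0037). PTPRA (chr20:2986176-2987176, intron 10) reached 6.05 and 4.21 CPM in WT and 28.8 and 25.6 CPM in USP18−/− cells, with log2 rises of 2.90 (SE 0.36) and 3.51 (SE 0.21), edgeR adjusted p = 3.5e-09 and 1.1e-26. The difference of these rises was 0.60 (SE 0.52, edgeR adjusted p = 0.57).

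Of the 104 members raised in WT cells, 95 also rose in USP18−/− cells, which are other libraries. Their median log2 fold change was 1.39 in WT, where they were chosen, and 3.50 in USP18−/− cells. The medians were 2.40 and 6.55 CPM in WT without and with IFNα and 2.37 and 34.7 CPM in USP18−/− cells. The untreated groups thus had like medians at these members, and the treated groups did not. The 7 members lowered in WT were at VAV2, TNFRSF1B, CEMIP, ROBO2, CACNA2D3 and LOC101929710, with log2 values from -1.57 to -1.03, and at TLE1, at -2.20, which is named here after its value was seen. The first 6 had 2.36 to 6.20 CPM in the untreated WT libraries, and DESeq2 called 0 falls in WT. Without WT untreated replicate 1 or WT with IFNα replicate 2 the falls numbered 1, and without WT untreated replicate 2 they numbered 3.

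**Figure D1:**
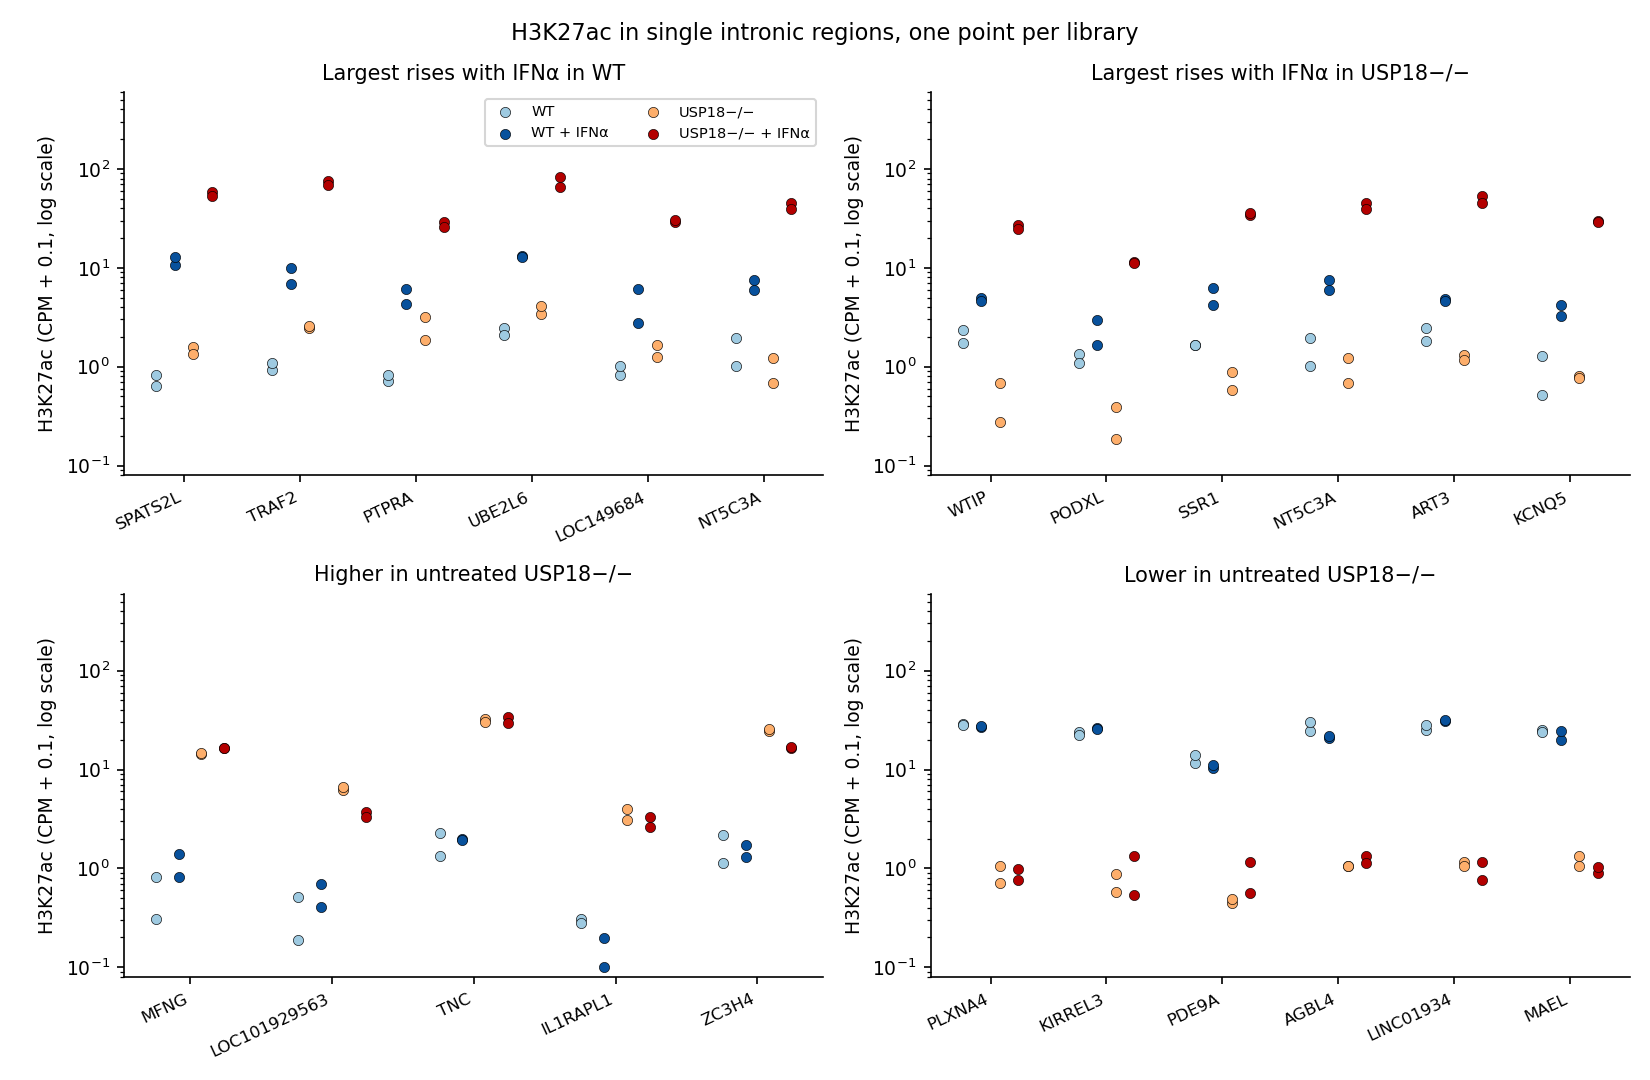
H3K27ac in CPM (plus 0.1, log axis) in single intronic regions, 1 point per library, with pale blue for WT, dark blue for WT with IFNα, orange for USP18−/− and red for USP18−/− with IFNα. In the upper panels the red points lie above all others, as at UBE2L6 with 66.0 and 82.0 CPM, and in the lower panels the genotypes separate whether or not IFNα was given.

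In USP18−/− cells, IFNα raised 2250 members in 1563 host genes and lowered 1373. These were 8.22% and 5.02% of the members tested, beside 7.14% and 4.28% of all regions. The raised members had medians of 2.46, 3.21, 2.14 and 8.66 CPM in the 4 groups, and the lowered ones 8.14, 7.0, 6.88 and 2.75 CPM. The named members with the highest rises were at 0.0873 to 1.22 CPM without IFNα in this genotype. In intron 1 of ART3 the libraries had 1.22 and 1.06 CPM without and 53.0 and 45.6 CPM with IFNα, against 2.38 and 1.72 CPM and 4.76 and 4.51 CPM in WT. The log2 rise was 5.42 (SE 0.21, edgeR adjusted p = 4.4e-39) in USP18−/− and 1.19 (SE 0.27, edgeR adjusted p = 0.0088) in WT, with a difference of 4.23 (SE 0.41, edgeR adjusted p = 9.2e-14).

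NT5C3A (1402 bp from its start site) went from 1.13 and 0.577 CPM to 45.5 and 38.8 CPM in USP18−/− cells, and from 1.86 and 0.908 CPM to 5.85 and 7.49 CPM in WT. PODXL went from 0.0873 and 0.289 CPM to 11.3 and 11.1 CPM in USP18−/− cells, while the WT libraries had 1.24 and 0.998 CPM without and 2.87 and 1.54 CPM with IFNα. At PODXL the untreated USP18−/− libraries were below WT, with a log2 value of -2.53 (SE 0.66, edgeR adjusted p = 0.0012), and its rise with IFNα was 5.84 (SE 0.40, edgeR adjusted p = 1.3e-22). Untreated USP18−/− libraries were also below WT in intron 7 of WTIP, which encodes a LIM domain protein (chr19:34497948-34498948), with 0.175 and 0.577 CPM in USP18−/− cells, 27.1 and 24.4 CPM after IFNα, and 1.65 and 2.27 CPM in untreated WT. SSR1, a subunit of the ER translocon complex (chr6:7304533-7305533, intron 2), reached 34.2 and 35.6 CPM, and KCNQ5, a potassium channel gene (chr6:72976826-72977826, intron 1), reached 29.8 and 29.1 CPM.

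Other members rose in USP18−/− cells and did not pass the test in WT. PAFAH1B2 had 1.03 and 1.36 CPM in WT, 1.49 and 1.23 CPM in WT with IFNα, 1.57 and 0.962 CPM in USP18−/− and 31.6 and 26.8 CPM in USP18−/− with IFNα. The last group alone stood apart, and the IFNα effects differed by 4.33 on the log2 scale (SE 0.53, edgeR adjusted p = 4.3e-10). In intron 1 of XACT, a long noncoding RNA gene of the X chromosome (chrX:113797723-113798723), that group had 9.50 and 7.70 CPM and the other 6 libraries 0.385 to 1.76 CPM, a difference of IFNα effects of 4.95 (SE 0.63, edgeR adjusted p = 1.4e-09). In SAMD4A, an RNA-binding protein gene (chr14:54782726-54783726, intron 10), it had 23.3 and 21.2 CPM and the others 0.413 to 1.44 CPM, a difference of 3.71 (SE 0.69, edgeR adjusted p = 2.3e-05). A window in intron 3 of SRGAP2 had 2.84 and 2.35 CPM in that group and 0 CPM in both IFNα treated WT libraries, which is at least 8.67-fold higher with a floor of 3 counts per library, while its fitted difference of 7.86 depends on the prior count. SRGAP2 has near-identical copies in the genome, SRGAP2C among them, so reads may not be assigned to the right copy.

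Falls with IFNα in USP18−/− cells included AJAP1, an adherens junction gene, at chr1:4754976-4755976 in intron 2. It had 33.4 and 34.7 CPM in WT and 27.9 and 28.3 CPM in WT with IFNα, then 54.5 and 55.4 CPM in USP18−/− and 6.48 and 6.85 CPM in USP18−/− with IFNα. Untreated USP18−/− cells were thus the highest group and treated ones the lowest, with a fall of -3.04 (SE 0.13, edgeR adjusted p = 8.1e-35) against -0.28 (SE 0.12, edgeR adjusted p = 0.40) in WT. PHACTR1 and PHACTR3, which encode actin and phosphatase regulators, fell in USP18−/− cells with IFNα, to values that did not overlap those of the other 3 groups. PHACTR1 (chr6:13261318-13262318) had 16.5 to 22.9 CPM in the 6 other libraries and 4.08 and 3.76 CPM in treated USP18−/− cells, and PHACTR3 (chr20:59751962-59752962) had 8.28 to 12.6 CPM and 1.60 and 1.88 CPM.

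The difference of the IFNα effects between genotypes passed for 1515 members with the larger effect in USP18−/− cells and for 854 with the smaller. These were 5.53% and 3.12%, beside 4.66% and 2.51% of all regions. Members with the smaller effect included CTTN, the gene of cortactin (chr11:70423834-70424834), at 0.413 and 0.908 CPM in WT, 0.991 and 1.44 CPM in WT with IFNα, 3.23 and 2.50 CPM in USP18−/− and 0.444 and 1.22 CPM in USP18−/− with IFNα. Its difference was -2.62 (SE 0.67, edgeR adjusted p = 0.0031). In intron 8 of HDAC4, a class IIa deacetylase gene (chr2:239143567-239144567), the means were low in every group, from 0.413 to 2.38 CPM in single libraries, and the difference was -2.54 (SE 0.67, edgeR adjusted p = 0.0040). Leaving out WT with IFNα replicate 2 ended the call for CTTN, and DESeq2 called neither.

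Without IFNα, 1647 members were higher in USP18−/− than in WT cells and 3004 lower. These were 6.02% and 11%, beside 5.66% and 10.8% of all regions. More of all regions lay within 3000 bp of a start site, 20.7% against 9.83% of members. Beyond that distance, 5.79% of members and 5.17% of all regions were higher, and 11.4% and 12.7% lower. Higher members had medians of 2.35, 2.62, 6.71 and 6.4 CPM in the 4 groups, and lower members 4.88, 4.43, 1.59 and 1.60 CPM. In intron 21 of TNC, the gene of the matrix protein tenascin C (chr9:115035482-115036482), the WT libraries had 1.24 and 2.18 CPM without and 1.88 and 1.85 CPM with IFNα, and the USP18−/− libraries 32.0 and 29.8 CPM without and 33.8 and 29.5 CPM with it. The genotypes did not overlap, and with IFNα neither passed the test, with log2 values of 0.10 (SE 0.34) and 0.03 (SE 0.13), edgeR adjusted p = 0.97 and 0.90.

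MFNG, a fringe glycosyltransferase gene of the Notch pathway (chr22:37484150-37485150, intron 1), had 0.207 to 1.29 CPM in the 4 WT libraries and 14.4 to 16.5 CPM in the 4 USP18−/− libraries. In ZC3H4, a zinc finger gene (chr19:47095417-47096417), the values were 1.03 and 2.09 CPM in WT and 24.7 and 25.8 CPM in USP18−/− cells.

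Among the lower members, PLXNA4, a plexin receptor gene (chr7:132351824-132352824, intron 3), had 26.8 to 28.7 CPM in the 4 WT libraries and 0.611 to 0.962 CPM in the 4 USP18−/− libraries. The log2 difference was -5.17 (SE 0.24, edgeR adjusted p = 3.4e-33) without IFNα. MAEL (chr1:167015820-167016820) had 20.0 to 24.8 CPM in WT and 0.799 to 1.22 CPM in USP18−/− cells. AGBL4, a carboxypeptidase gene that acts on polyglutamate chains (chr1:48611548-48612548, intron 9), had 20.8 to 29.9 CPM and 0.960 to 1.24 CPM. PDE9A, a cGMP phosphodiesterase gene (chr21:42683185-42684185), had 10.3 to 14.1 CPM and 0.349 to 1.07 CPM. The long noncoding RNA gene LINC01934 (chr2:181374410-181375410) had 24.8 to 31.5 CPM and 0.657 to 1.07 CPM. In each of these 5 the lowest WT library was above every USP18−/− library, with or without IFNα.

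Some of these regions are neighbors on a chromosome. The KIRREL3 window (chr11:126467770-126468770), with 22.3 to 26.5 CPM in WT and 0.444 to 1.22 CPM in USP18−/− cells, and the ST3GAL4 window (chr11:126391649-126392649) lie at adjacent genes, of a nephrin-like adhesion protein and a sialyltransferase. ST3GAL4 had 74.3 and 70.9 CPM in WT, 54.8 and 54.5 CPM in WT with IFNα, 8.99 and 10.7 CPM in USP18−/− and 1.69 and 2.25 CPM in USP18−/− with IFNα. It was thus lower in USP18−/− cells and lower again with IFNα, with a log2 difference between genotypes of -2.89 (SE 0.12, edgeR adjusted p = 1.1e-34) without and -4.79 (SE 0.17, edgeR adjusted p = 2.9e-41) with IFNα. SARDH, the gene of mitochondrial sarcosine dehydrogenase (chr9:133714912-133715912, intron 8), had 12.9 to 20.7 CPM in WT and 0.188 to 0.873 CPM in USP18−/− cells. With IFNα in both genotypes, 3240 members were higher in USP18−/− cells and 3911 lower, which were 11.8% and 14.3%, beside 11.3% and 13.4% of all regions. Over 3000 bp from a start site, 11.3% of members and 10.3% of all regions were higher, and 14.9% and 15.7% lower.

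SFT2D2, a vesicle transport gene (chr1:168226832-168227832, intron 1), was higher in USP18−/− cells in both states. It had 1.14 and 0.454 CPM in WT and 0.495 and 1.13 CPM in WT with IFNα, then 5.06 and 8.08 CPM in USP18−/− and 28.9 and 28.3 CPM in USP18−/− with IFNα. Windows with less than 4 CPM in every library were also among the largest differences with IFNα, at IL1RAPL1 (3.20 and 2.53 CPM in treated USP18−/− cells against 0.0991 and 0 CPM in treated WT) and at EXOC2 (1.69 and 2.44 CPM against 0 and 0.103 CPM). No fold is given for these because WT was at or near 0. SRGAP2C had 1.24 and 4.51 CPM in treated USP18−/− cells, so its libraries differed widely.

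The direction of these counts depends on how libraries are scaled. Scaling by the sum of counts in place of TMM moved the median log2 fold change of members by -0.13 for IFNα in USP18−/− cells, by -0.14 and -0.28 for USP18−/− against WT without and with IFNα, and by -0.13 for the difference of effects. The share of calls that were higher then went from 62.1% to 48.8% for IFNα in USP18−/− cells, from 35.4% to 23.5% and from 45.3% to 27.1% for the genotypes without and with IFNα, and from 64.0% to 49.2% for the difference. Scaling and testing the intronic regions alone gave 52.0% for the genotypes with IFNα. In WT cells the share was 93.7% and 93.0% under TMM and the sum of counts.

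First introns held fewer members than later introns but more signal per member. The median of tested first-intron members was 3.07 to 3.18 CPM in WT libraries and 2.60 to 2.82 CPM in USP18−/− libraries, and that of later-intron members was 1.88 to 1.96 CPM and 1.66 to 1.78 CPM. First-intron members were also closer to a start site, with a median distance of 11345 bp against 31926 bp, and 21.8% against 4.31% lay within 3000 bp. Within 2294 host genes that had tested members of both kinds, the first intron had the higher level in 59.3% to 60.1% of genes in each of the 8 libraries.

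The share of all tags in first-intron members was alike in every group, with means of 8.04%, 8.10%, 8.02% and 7.99%. The share in later-intron members was 11.2% (SD 0.0846, n = 2) in WT and 11.2% (SD 0.273, n = 2) in WT with IFNα, and it was 10.0% (SD 0.120, n = 2) and 9.79% (SD 0.0231, n = 2) in USP18−/− cells without and with IFNα. Every USP18−/− library lay below every WT library. The share in all members was 19.2%, 19.3%, 18.1% and 17.8%, with a difference of -1.33 percentage points between USP18−/− and WT (p = 0.056, the smallest that an exact two-sided permutation of 36 relabelings can give). With IFNα the difference was -0.128 percentage points (p = 0.50, exact permutation). The log2 ratio of tags per first-intron region to tags per later-intron region was 0.64, 0.66, 0.80 and 0.83, higher by 0.16 in USP18−/− cells (p = 0.056, exact permutation). With IFNα the ratio was higher by 0.02 (p = 0.056, exact permutation), and over these 4 permutation tests the adjusted p values were 0.074, 0.50, 0.074 and 0.074. The IFNα value changed sign when members within 3000 bp of a start site were left out, giving -0.00299. The same step gave 0.082 for the genotypes, while the median of log2 CPM in place of the sum gave -0.0456.

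**Figure D2:**
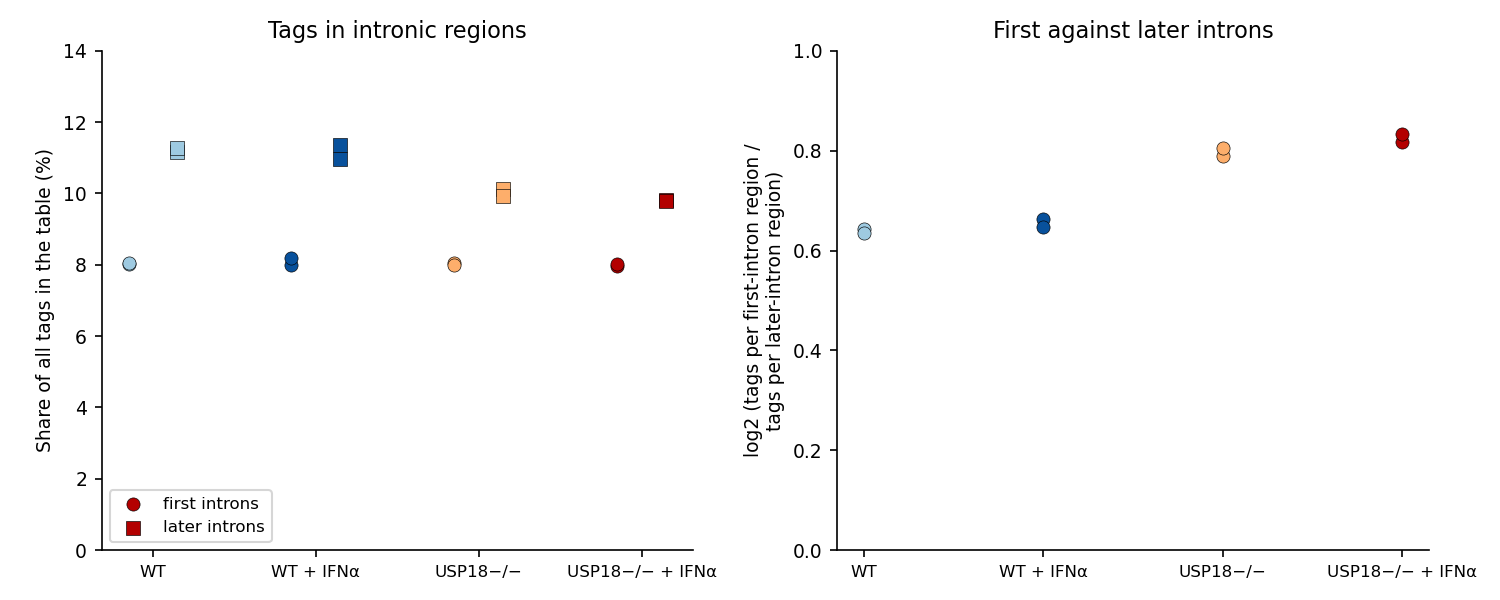
Left, share of all tags in the table that fell in first-intron (circles) and later-intron (squares) members, in percent, 1 point per library. Right, log2 ratio of tags per first-intron to tags per later-intron region, with the WT libraries at 0.63 to 0.66 and the USP18−/− libraries at 0.79 to 0.83.

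IFNα in USP18−/− cells raised 8.58% of first-intron and 8.04% of later-intron members, and lowered 4.89% and 5.08%. In WT it raised 0.431% and 0.355%. Between genotypes without IFNα, 6.75% and 5.66% were higher and 10.8% and 11.1% lower. With IFNα, 13.4% and 11.1% were higher and 14.1% and 14.4% lower. With a filter of 30 counts, which keeps more strongly marked regions, first introns had the smaller share of rises with IFNα in USP18−/− cells, with a difference of -1.99 percentage points. Within the 2294 genes with both kinds, the first intron had the larger log2 fold change in 49.6% to 50.9% of genes in the 5 comparisons.

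Distance to the start site went with the genotype calls, in members as over all regions. Of all regions over 3000 bp from a start site, 12.7% were lower in untreated USP18−/− cells, beside 10.8% of all regions. Members had 11.4% over 3000 bp and 7.10% within it. The share of first-intron members lower in untreated USP18−/− cells was 5.13% within 1000 bp and 7.13%, 8.78%, 13.0% and 16% in bins up to 3000, 10000, 50000 and over 50000 bp. Later introns had 8.65%, 9.09%, 8.91%, 9.94% and 14%. With IFNα, 20.3% of first-intron members within 1000 bp were higher in USP18−/− cells and 11.4% of those over 50000 bp. The share raised by IFNα in USP18−/− cells had no such order, with 8.39%, 8.45%, 7.85%, 8.63% and 10.3% in first introns. The later-intron bin within 1000 bp holds 104 members, so its shares are less precise. Members merged from 2 peak calls were raised by IFNα in USP18−/− cells in 14.5% of cases, and those from 3 to 8 calls in 6.32% to 8.50%. The study's ATAC-seq covered the same genotypes and treatments in duplicate, so a peak with 2 calls may have been open in a single group. Members that entered through treated USP18−/− cells would raise this share by the way they were chosen, which was not tested.

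**Figure D3:**
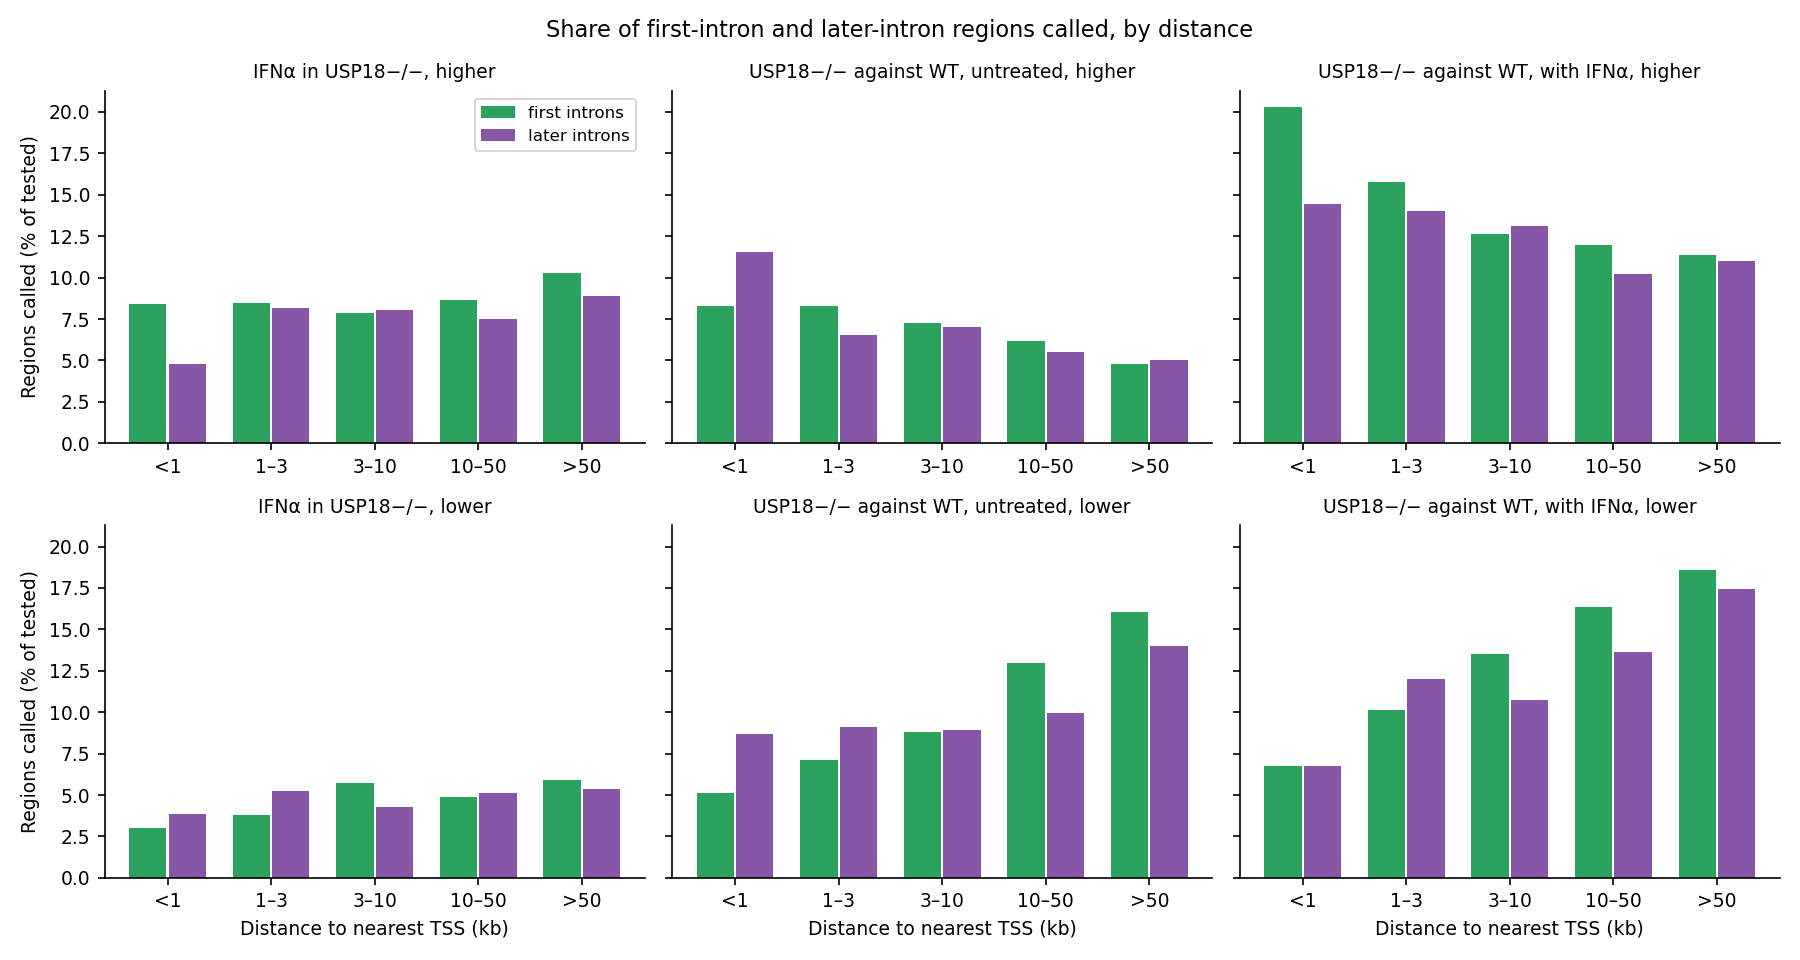
Percent of tested first-intron (green) and later-intron (purple) members called higher (upper row) or lower (lower row), by distance to the nearest start site in kb, for 3 comparisons. In first introns the share lower in USP18−/− cells climbs with distance, from 5.13% to 16% without IFNα, and the share raised by IFNα in USP18−/− cells is 7.85% to 10.3%.

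The ISRE core was found in 5.43% of all 151654 regions and in 5.44% of members, searched in the middle 200 bp on both strands. Of members raised by IFNα, 47.1% held it in WT (49 of 104) and 28.3% in USP18−/− cells (636 of 2250). It was in 1.89% of members lowered by IFNα in USP18−/− cells and in 3.74% of members with no call. Members that differed between untreated genotypes were close to the background, with 5.04% of the higher and 5.56% of the lower ones. Among members with the match, IFNα raised 41.6% of first-intron and 39.7% of later-intron members in USP18−/− cells, against 6.51% and 6.13% without it. In WT these were 3.37% and 2.97%, against 0.246% and 0.197%.

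The C/EBP letters TTGCNNAA were in 16.4% of all regions and 17.5% of members, and in 26.2% of members lower and 15.0% of members higher in untreated USP18−/− cells. The AP-1 letters TGANTCA were in 12.9% of all regions and 14.8% of members, in 20.6% of members raised and 9.03% of those lowered by IFNα in USP18−/− cells. The RUNX letters TGTGGT were in 18.4% of all regions, 20.8% of members, and 24.5% of members lower in untreated USP18−/− cells. The GC box GGGCGG was in 16.1% of all regions but in 8.10% of members, and in 12.3% of members higher in untreated USP18−/− cells. Windows may hold more than 1 motif, matches may overlap, and a match is a run of letters and not a bound site.

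By chromosome, the median log2 difference between untreated genotypes was 0.31 on chromosome 19, where 10.9% of tested members were higher and 4.46% lower in USP18−/− cells. On chromosome 5 it was -0.29, with 3.51% higher and 17.6% lower, and on chromosome 13 it was -0.26. With IFNα, chromosomes 19 and 5 had medians of 0.29 and -0.28. The IFNα effect in WT had medians from -0.03 to 0.06 over the chromosomes.

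Summed over all members of a host gene, 3274 genes with at least 3 tested members could be compared. IFNα raised the intronic sum of 7 genes in WT (0.214%) and lowered 0 (0%), with 591 genes at an unadjusted p under 0.05 by edgeR and 0 falls called by DESeq2. In USP18−/− cells it raised 296 (9.04%) and lowered 86 (2.63%). Without IFNα, 158 genes were higher (4.83%) and 316 lower (9.65%) in USP18−/− cells, and with IFNα 368 (11.2%) and 403 (12.3%). The effect of IFNα was larger in USP18−/− cells for 270 genes (8.25%) and smaller for 63 (1.92%). Of 680 genes with 2 or more members called for IFNα in USP18−/− cells, 327 had only rises, 190 only falls and 163 both.

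NF2, the gene of the tumor suppressor merlin, had the highest log2 fold change with IFNα in USP18−/− cells among the 3274 sums. Its 6 tested members summed to 13.6 and 10.8 CPM in WT, 15.7 and 16.1 CPM in WT with IFNα, 9.43 and 7.99 CPM in USP18−/−, and 143 and 118 CPM in USP18−/− with IFNα. The rise was 3.90 (SE 0.12, edgeR adjusted p = 1.6e-45) in USP18−/− cells and 0.39 (SE 0.15, edgeR adjusted p = 0.10) in WT. It came from 3 overlapping windows of intron 2 (chr22:29640655-29642368), which share tags, while the other 3 members did not pass. TRAF2 also rested on 1 window, with sums of 2.89 and 2.63, 8.62 and 12.4, 4.71 and 8.08, and 78.3 and 74.4 CPM. In XACT all 3 members rose, and in HDC, the gene that makes histamine, 2 of 4 did in both genotypes, with sums of 5.27 and 6.26, 17.7 and 16.8, 4.54 and 7.99, and 51.0 and 53.6 CPM. Windows overlap in these genes too, since the 3 XACT members make up 2 separate stretches and the 4 HDC members 3. NF2, TRAF2, XACT and HDC were named for the rise of their sums, so raised members follow from that choice. IFNα raised 7.14% of all regions in USP18−/− cells and 0.344% in WT.

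MIA3, which acts in the export of collagen from the ER, was below WT in untreated USP18−/− cells and above it with IFNα, with sums of 26.3 and 24.2, 35.2 and 35.8, 11.7 and 11.3, and 125 and 109 CPM. OTUD7B, a deubiquitinase gene, had 5.17 and 4.54, 10.2 and 10.5, 3.40 and 2.98, and 38.4 and 34.8 CPM. With IFNα in USP18−/− cells, 1 of its 3 tested members was raised, at 5.03, and the median member was at 0.67. In MIA3, 2 of 3 tested members were raised and the lowest was at 0.17. IFNα raised 7.14% of all regions there, and both genes were named for the rise of their sums. The log2 fold changes of MIA3 and OTUD7B with IFNα were 0.49 (SE 0.11) and 1.09 (SE 0.19) in WT and 3.34 (SE 0.11) and 3.51 (SE 0.16) in USP18−/− cells, with edgeR adjusted p = 0.0011, 2.3e-05, 9.0e-44 and 7.4e-33. The value for MIA3 in WT is below the log2 fold change of 1 that a call needs. AJAP1, named for the fall of its sum with IFNα in USP18−/− cells, had 6 of 8 members called lower there, beside 4.28% of all regions. Its members had log2 values from -3.04 to -0.84, and its sums were 60.1 and 60.4, 48.3 and 50.4, 106 and 109, and 19.9 and 18.4 CPM. SEZ6L2 had 135 and 134, 129 and 130, 70.9 and 82.0, and 24.7 and 24.8 CPM, and PRMT7, an arginine methyltransferase gene, 43.1 and 49.6, 39.6 and 35.2, 39.6 and 41.2, and 10.7 and 12.3 CPM. Overlapping windows share tags here as well. The 3 MIA3, 3 SEZ6L2 and 4 PRMT7 members tested each make up 2 separate stretches.

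**Figure D4:**
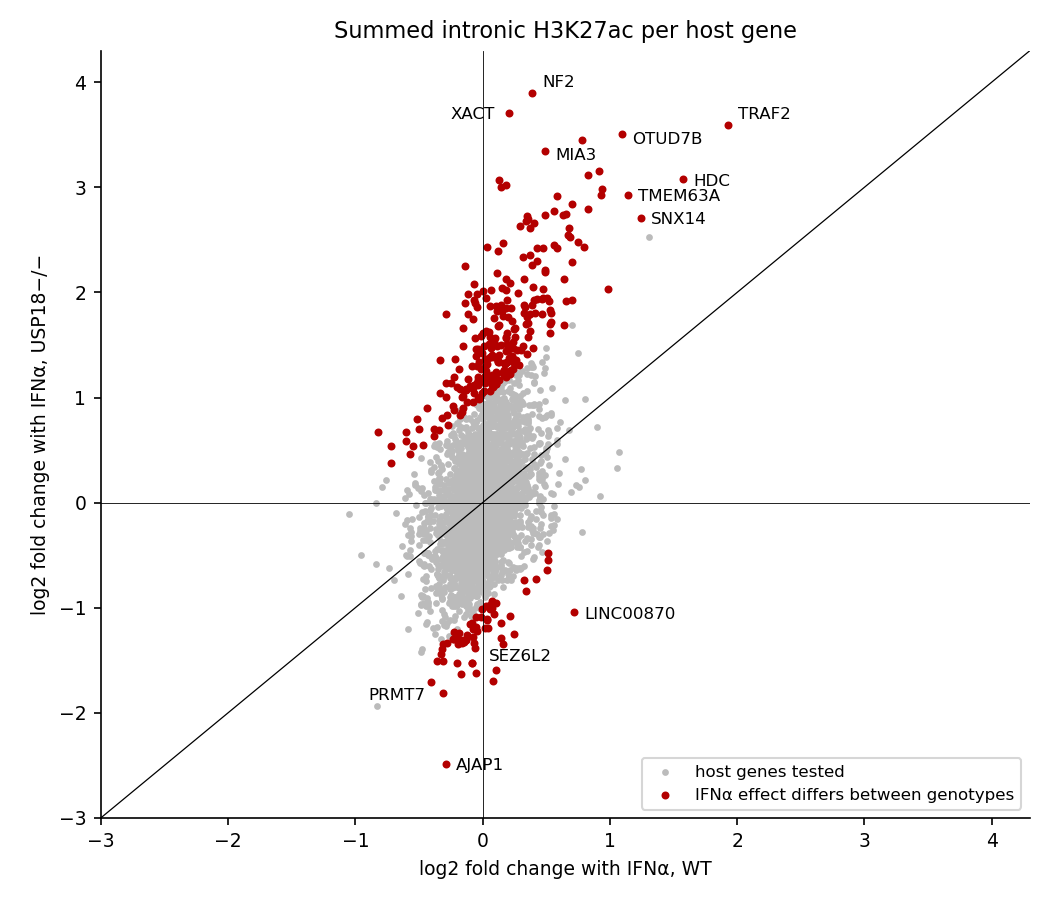
Log2 fold change with IFNα of summed intronic H3K27ac per host gene, WT on the x axis and USP18−/− on the y axis, 1 point per gene, with the line of equal change. Red marks the 270 genes with a larger and the 63 with a smaller effect in USP18−/− cells, of 3274 tested, and NF2 lies at 0.39 and 3.90.

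Between genotypes, several genes were lower over many of their members. In AGBL4, 13 of 18 tested members were lower in untreated USP18−/− cells, and its sums were 228 and 241, 198 and 214, 29.7 and 22.6, and 21.8 and 23.2 CPM, a log2 difference of -3.16 (SE 0.08, edgeR adjusted p = 3.1e-51) without IFNα. In PDE4D, a cAMP phosphodiesterase gene with 32 members, 14 of 23 tested were lower, in KIRREL3 9 of 12 and in LINC01934 8 of 11. These counts stand beside a share of 10.8% lower over all regions. AGBL4 and KIRREL3 were named for the fall of their sums in this comparison, so many lower members follow from that choice. MAEL, ADAMTSL2, SARDH and EDIL3 had differences from -3.93 to -3.09. Some of their windows overlap, since the 3 tested ADAMTSL2 members make up 2 separate stretches and the 5 tested SARDH members 3. ADAMTSL2 and SARDH are close to each other on chromosome 9, and the VAV2 window of chr9:133822356-133823356 has SARDH as its nearest start site. Gains without IFNα included SFT2D2, with sums of 2.48 and 2.00, 1.68 and 2.67, 16.7 and 18.9, and 51.8 and 46.1 CPM, and CD83, a surface marker of activated antigen-presenting cells, with 5.27 and 4.08, 4.26 and 4.62, 22.7 and 21.8, and 40.5 and 39.7 CPM. IL4I1, an amino acid oxidase gene, had 5.79 and 5.72, 8.13 and 6.97, 23.9 and 27.3, and 58.8 and 66.2 CPM.

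Of the 10 genes with the most members, ARHGAP26, the gene of a GTPase-activating protein, had 50 members and sums of 388 and 369, 382 and 387, 480 and 460, and 478 and 455 CPM. Its members ranged from -1.14 to 3.57 with IFNα in USP18−/− cells, 4 called rising and 3 falling, beside 7.14% and 4.28% of all regions. FOXP1, a transcription factor gene with 39 members, had 1 higher member in untreated USP18−/− cells, at 3.19. HIVEP3 had 31 of its 35 members in the first intron and a sum higher by 0.24 (SE 0.04, edgeR adjusted p = 3.7e-08) in untreated USP18−/− cells, below the fold threshold. PDE4D, also among these 10, was lower in untreated USP18−/− cells, at -1.98 (SE 0.07, edgeR adjusted p = 2.6e-39), and DLG2, a synaptic scaffold gene, was at -1.01 (SE 0.10, edgeR adjusted p = 4.3e-15) between genotypes with IFNα.

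**Figure D5:**
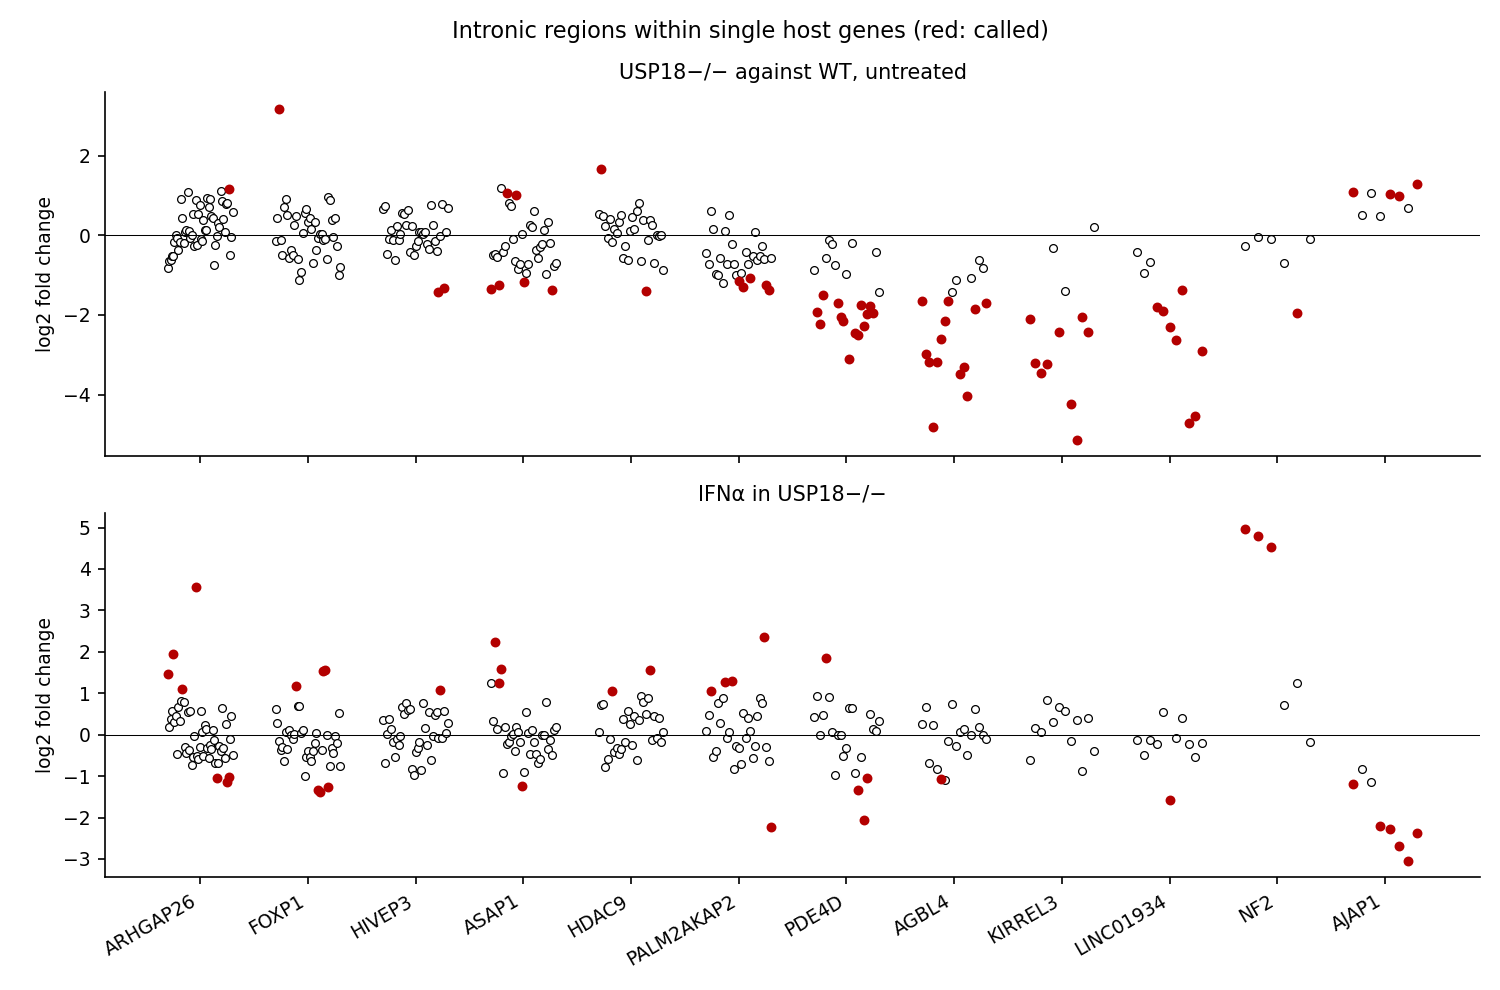
Log2 fold change of each tested intronic member of 12 host genes, USP18−/− against WT without IFNα above and IFNα in USP18−/− cells below, with called members in red. Most AGBL4, KIRREL3 and LINC01934 members lie below 0 in the upper panel, while 3 overlapping NF2 windows stand at 4.54 to 4.95 in the lower panel.

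The ISGF3 pathway and IFN-stimulated genes (86 genes) hosted 121 members in 46 genes, 115 of them tested. In WT, IFNα raised 12 (10.4%, beside 0.344% of all regions) and lowered 0. In USP18−/− cells it raised 32 (27.8%, beside 7.14%) and lowered 11 (9.57%, beside 4.28%), or 29 and 15 when scaled by the sum of counts. The median log2 fold changes were 0.13 and 0.44, beside -0.01 and -0.02 over all members. The difference of effects passed for 23 with the larger (20%, beside 4.66% of all regions) and 4 with the smaller effect (3.48%, beside 2.51%) in USP18−/− cells. In OAS1, an antiviral oligoadenylate synthetase (chr12:112907022-112908022, intron 1), the values were 8.78 and 6.72, 19.8 and 19.5, 10.3 and 9.05, and 74.6 and 71.7 CPM. In LGALS9, the gene of galectin-9 (chr17:27631068-27632068, intron 1), they were 18.4 and 17.8, 35.6 and 36.5, 23.4 and 21, and 113 and 107 CPM. In both windows the untreated libraries of the genotypes were near each other. IFNα raised the OAS1 window in WT at 1.35 (SE 0.15, edgeR adjusted p = 1.9e-10) and in USP18−/− cells, while the WT value at LGALS9 of 0.995 (SE 0.12, edgeR adjusted p = 5.5e-10) was just under the fold threshold, with a rise called in USP18−/− cells. Comparing treated genotypes, 27 passed as higher (23.5%, beside 11.3% of all regions) and 12 as lower (10.4%, beside 13.4%), or 24 and 20 when scaled by the sum of counts. The median was 0.25, or -0.02 with that scaling.

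NF-κB subunits, regulators and targets (46 genes) hosted 86 members, 82 tested. In untreated USP18−/− cells 15 were higher in 8 host genes (18.3%, beside 5.66% of all regions) and 7 lower in 6 (8.54%, beside 10.8%). With IFNα 19 were higher in 12 host genes (23.2%, beside 11.3%) and 3 lower in 3 (3.66%, beside 13.4%), and the medians without and with IFNα were 0.31 and 0.44. Scaled by the sum of counts, the members called became 10 and 7 without and 11 and 6 with IFNα, with medians of 0.16 and 0.16. IFNα raised 1 in WT, the TRAF2 window, and in USP18−/− cells it raised 11 (13.4%, beside 7.14%) and lowered 2 (2.44%, beside 4.28%). In BCL3, a nuclear IκB protein (chr19:44753015-44754015), the libraries had 8.26 and 7.99, 10.4 and 10.7, 27.8 and 27.4, and 38.3 and 42.8 CPM. In IKBKE, a kinase of the IFN and NF-κB pathways (chr1:206472215-206473215), they had 24.9 and 26.4, 34.6 and 30.9, 28.3 and 30.4, and 101 and 100 CPM. At BCL3 all 4 USP18−/− libraries were thus above every WT library, while at IKBKE the USP18−/− libraries with IFNα stood apart, with a difference of effects of 1.43 (SE 0.15, edgeR adjusted p = 2.6e-12).

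Pyroptosis and inflammasome genes (19 genes) hosted 18 members, 16 tested. Between treated genotypes 4 were higher in USP18−/− cells (25%, beside 11.3% of all regions) and 0 lower (beside 13.4%), or 2 and 0 when scaled by the sum of counts. Between untreated genotypes 2 were higher (12.5%, beside 5.66%) and 0 lower, or 0 and 1 with that scaling. IFNα raised 2 (12.5%, beside 7.14%) and lowered 2 (12.5%, beside 4.28%) in USP18−/− cells, and 0 passed in WT. CASP8, an initiator caspase (chr2:201239284-201240284, intron 2), had 11.9 and 13.9, 14.8 and 16.2, 29.5 and 24.2, and 72.2 and 62.9 CPM. CASP1, the caspase that processes IL-1β (chr11:105033005-105034005, intron 2), had 3.31 and 3.54, 2.97 and 4.31, 2.01 and 2.02, and 6.04 and 8.73 CPM, with a rise of 1.86 (SE 0.27, edgeR adjusted p = 1.3e-08) in USP18−/− cells and a value of 0.08 (SE 0.28, edgeR adjusted p = 0.97) in WT.

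Histone acetylation writers, erasers and readers (29 genes) hosted 157 members, 151 tested. In untreated USP18−/− cells 16 were higher in 7 host genes (10.6%, beside 5.66% of all regions) and 6 lower in 4 (3.97%, beside 10.8%). Scaled by the sum of counts, 12 were higher and 7 lower. With IFNα 25 were higher in 10 host genes (16.6%, beside 11.3%) and 11 lower in 8 (7.28%, beside 13.4%). Scaling by the sum of counts gave 18 and 16 with IFNα, and the median went from 0.19 to -0.08. IFNα raised 15 (9.93%, beside 7.14%) and lowered 7 (4.64%, beside 4.28%) in USP18−/− cells, shares close to those of all regions. Another HDAC4 window, in intron 2 (chr2:239318845-239319845), had 1.45 and 1.27, 2.77 and 1.33, 5.32 and 6.93, and 20.0 and 21.8 CPM.

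Myeloid and leukemia transcription factors (57 genes) hosted 251 members, 238 tested. In untreated USP18−/− cells 18 were higher (7.56%, beside 5.66% of all regions) and 18 lower (7.56%, beside 10.8%). With IFNα 27 were higher (11.3%, beside 11.3%) and 34 lower (14.3%, beside 13.4%), and IFNα raised 13 (5.46%, beside 7.14%) and lowered 10 (4.20%, beside 4.28%) in USP18−/− cells. These shares were near those of all regions. Scaled by the sum of counts, the counts became 11 and 24 without IFNα, 17 and 59 with it, and 13 and 20 for IFNα in USP18−/− cells. NFIL3, a bZIP factor (chr9:91415055-91416055), had 4.03 and 3.90, 4.95 and 6.15, 5.85 and 5.77, and 40.7 and 35.6 CPM. ETS1 (chr11:128575589-128576589, intron 1) had 24.6 and 27.8, 25.2 and 24.6, 8.90 and 8.85, and 4.70 and 4.41 CPM. The median of the list between untreated genotypes was 0.05, or -0.09 when scaled by the sum of counts.

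Monocyte markers (32 genes) hosted 46 members, 44 tested, and stand for the labeled cell type, with 34 to 38 of 46 over 2 CPM in each group. The median level of these members was 4.76, 4.13, 6.98 and 6.42 CPM in the 4 groups, so the median level did not rise with IFNα. Their summed level was 413 to 426 CPM in WT, 455 to 460 CPM with IFNα, 548 to 573 CPM in USP18−/− and 936 to 946 CPM in USP18−/− with IFNα. In USP18−/− cells IFNα raised 10 (22.7%, beside 7.14% of all regions) in 2 host genes and lowered 1 (2.27%, beside 4.28%), with a median of 0.21, or 9 and 3 with a median of 0.07 when scaled by the sum of counts. The 4 with the smallest p were all in LYN, a Src family kinase, so the rise of the sum rests in part on 1 gene. The LYN window at chr8:56005046-56006046 had 16.1 and 15.3, 49.3 and 49.3, 15.9 and 14.3, and 173 and 172 CPM. Markers of other cell types (38 genes) hosted 69 members, 39 tested, at medians of 0.73 to 0.81 CPM over the groups. Their summed level was 179 to 187 CPM in WT and 126 to 128 CPM in USP18−/− with IFNα, and EBF1, a B cell factor (chr5:159021495-159022495), had 8.16 to 13.1 CPM in WT and 0.845 to 1.66 CPM in USP18−/− cells. In untreated cells, USP18−/− exceeded WT at 6 of the list (15.4%, beside 5.66% of all regions), which lay in 4 host genes. It fell short at 9 (23.1%, beside 10.8%), which lay in 2 host genes. The median of the list was -0.27, and the part of such signal in the other results was not tested.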

How the data were processed

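H3K27ac ChIP-seq libraries of THP-1 cells were analysed at regions defined by ATAC-seq. The authors aligned reads with Bowtie2 to hg38 and counted tags with HOMER in windows of 1000 bp at merged ATAC-seq peaks, with versions not given in the sources used here. The deposited values are estimated counts in steps of 0.5 tags, neither normalized nor pooled by the authors, and were rounded to whole numbers. Value columns that match no sample number 0, and 8 input libraries were not used here. Regions with 10 counts in at least 2 of 8 libraries were fitted together with edgeR 4.0.16 and limma 3.58.1 in R 4.3.3 (quasi-likelihood test, TMM scaling, Benjamini-Hochberg adjustment over all regions tested), and regions were called where the log2 fold change passed 1 or -1 with adjusted p below 0.05. The common biological coefficient of variation was 0.0737. Sums per host gene were tested in the same way over genes with at least 3 tested members. On simulated data with 200 of 20000 regions changed 3-fold, 151 were called, with 6 false calls, in a comparison of 2 against 2 libraries, and 81 with 1 false call for a difference of effects. The simulated coefficient of variation was above that of the data, and the changes were few and in either direction at random. Its false calls thus do not carry over to comparisons in which a larger share of regions changed. Named regions were, per comparison and direction, the 6 with the largest change among called regions whose libraries did not overlap (not asked of the difference of effects), with at least 2 CPM in the higher group and 1 per host gene. Named host genes were the 10 with the most members and up to 6 called sums per direction of at least 5 CPM, and for lists the 4 members with the smallest adjusted p. Introns are numbered as in the deposited annotation. The host gene came from a RefSeq table for 33013 members and from the deposited annotation for 270. The other 67 members matched neither and go by the name of their transcript. Sequences are from hg38. Members and lists were chosen with earlier results of these data known. The study's methods describe the 2 ChIP-seq libraries of a group as biological replicates, and the labels add nothing on their origin, so p-values rest on the spread between 2 libraries. Alternatives were other scalings, filters, DESeq2 1.42.0, a replicate block and leaving out each library, and GENCODE first introns were added after seeing the data. Some regions that met these rules are not reported here.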

Additional observations from a re-analysis of the deposited data

Results flagged for a closer look

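The results below were picked out because the effect of IFNα differed between genotypes by the interaction test of edgeR's quasi-likelihood fit. That was so for 1515 intronic regions with a larger and 854 with a smaller effect in USP18−/− cells, and for 270 and 63 host gene sums. Outlying libraries could not be looked for in groups of 2.

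Among single regions, the log2 difference of effects was 7.86 at SRGAP2 (dependent on the prior count, since IFNα treated WT libraries were at 0), 5.12 at ZHX2, 4.95 at XACT, 4.86 at PODXL, 4.85 at WTIP and 4.33 at PAFAH1B2. It was -2.90 at LINC00870, -2.77 at AJAP1, -2.74 at SLC7A2, -2.62 at CTTN, -2.60 at LINC01088 and -2.54 at HDAC4.

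Among intronic sums, the difference was 3.51 for NF2, 3.50 for XACT, 2.94 for XPR1, 2.86 for PODXL, 2.85 for MIA3 and 2.84 for PLEKHH1. It was -2.20 for AJAP1, -1.79 for LOC158435, -1.76 for LINC00870, -1.70 for RTN4RL1, -1.57 for SEZ6L2 and -1.51 for PRMT7. In XPR1, PLEKHH1, LOC158435 and LINC00870 only 1 member was called for this difference, of 3, 4, 3 and 4 tested.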

How the results depend on the processing

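Of the summary results under alternatives, 316 kept their direction and size, 37 moved and 3 changed sign, and of the named regions under alternatives 836 kept their call and 45 lost it with 0 changes of sign. Without the fold threshold, intronic regions numbered 204 higher and 49 lower for IFNα in WT, 3607 and 3507 for IFNα in USP18−/− cells, and 3873 and 4845 between untreated genotypes, with 5178 higher between treated genotypes and 1751 with a smaller effect. Host gene sums without it numbered 124 and 79, 943 and 857, 907 and 1090, 1126 and 1104, and 720 and 587 in the 5 comparisons. Scaling by the sum of counts gave 2148 higher regions between treated genotypes and 1305 with a smaller effect, and for host gene sums 151 lower with IFNα in USP18−/− cells, 221 higher and 634 lower between treated genotypes, and 107 with a smaller effect. Keeping 1 region per chain of overlapping windows gave 54 host gene sums lower with IFNα in USP18−/− cells and 41 with a smaller effect. Falls with IFNα in WT numbered 0 under DESeq2 and 14 with intronic regions tested alone.

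Leaving out 1 library gave 62 to 114 rises with IFNα in WT, 62 without WT untreated replicate 1, 67 without WT untreated replicate 2 and 64 without WT with IFNα replicate 1, and 1 to 9 falls, with 0 to 2 host gene sums lower. The IFNα difference in the intronic share ranged from -0.272 to 0.0163 percentage points, the last without WT with IFNα replicate 1. The ratio of first to later introns changed sign for the genotypes, to -0.0456, with the median of log2 CPM, and for IFNα, to -0.00299, with regions within 3000 bp of a start site left out. The cause was not tested.

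Replicate numbers share no known origin, and the correlations of same-numbered libraries were -0.0013 to 0.065. With a replicate block, higher and lower calls were 107 and 7 for IFNα in WT, 2246 and 1375 for IFNα in USP18−/− cells, 1638 and 3023 between untreated and 3231 and 3902 between treated genotypes, and 1514 and 859 for the difference. Region calls rest on depths of 9046141 tags or more per library, and regions under 10 counts were not tested.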
